A study of Mus musculus with 2 samples.

Results

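The granzymes and perforin of tumour-infiltrating lymphocytes were followed here as 9 genes, Gzma, Gzmb, Gzmc, Gzmd, Gzme, Gzmf, Gzmg, Gzmk and Prf1, chosen by symbol from the 31053 genes measured. The cells were live CD45+ cells sorted from B16 melanomas grown in C57BL/6 mice aged 8 weeks, profiled by droplet single-cell RNA sequencing of transcript 3' ends. Mettl3 fl/fl Lyz2+/+ mice (WT) carried the floxed Mettl3 alleles without Cre, and Mettl3 fl/fl Lyz2 cre/+ mice (KO) carried the same alleles with Cre in 1 copy of Lyz2, which is active in myeloid cells. The deletion was therefore aimed at myeloid cells, and T cells and NK cells of both genotypes carried floxed Mettl3 alleles. Cells of several mice were pooled into 1 library per genotype, so the spread from mouse to mouse is not known and genotypes were compared without a test. Intervals are 95% intervals that cover counting error only.

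Transcripts were counted as unique molecular identifiers (UMIs), of which 45963969 lay in 5895 barcodes labelled WT and 54052317 in 8446 barcodes labelled KO. After a filter on detected genes and mitochondrial share, 5661 and 8157 cells were kept, with medians of 4354 and 3740 UMIs. The libraries shared 13 barcode sequences. In macrophage-like cells, Mettl3 was at 10.1 UMIs per 1000000 UMIs (CPM) in the library labelled WT and at 10.6 CPM in the library labelled KO, from 154 and 175 UMIs, and a 3' count does not show whether a transcript lacks an internal exon. Lyz2, the gene that carries the Cre, was lower in the macrophage-like cells labelled KO, at 6174 and 2753 CPM. The libraries are named by their labels.

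Cytotoxic lymphocytes store granzymes, a family of serine proteases, together with the pore-forming protein perforin in granules that are released onto a target cell. Perforin (Prf1) lets the granzymes reach the target's cytosol, where granzyme B (Gzmb) cleaves caspases and other death substrates. Granzyme A (Gzma) is abundant in NK cells and some effector T cells, granzyme K (Gzmk) is typical of less differentiated or memory-type CD8 T cells, and granzymes C to G (Gzmc, Gzmd, Gzme, Gzmf, Gzmg) are rodent-specific relatives of granzyme B that strongly activated killer cells make.

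In the GENCODE annotation of GRCm38, 6 of the 9 genes lay on the minus strand within 144.6 kb of chromosome 14, with a further family gene, Gzmn, between Gzmg and Gzmf. Their order by rising coordinate was Gzme (chr14:56117626-56120625), Gzmd (chr14:56129556-56132608), Gzmg (chr14:56156582-56159579), Gzmf (chr14:56205263-56211417), Gzmc (chr14:56231441-56234656) and Gzmb (chr14:56258838-56262260). Gzma (chr13:113093825-113100981) and Gzmk (chr13:113171608-113225908) shared a locus of 132.1 kb on chromosome 13, also on the minus strand. Prf1 (chr10:61297833-61304680, plus strand) stood alone on chromosome 10. Among Gzmc, Gzmd, Gzme, Gzmf and Gzmg, the 10 pairs of transcripts were 72.6% to 90.4% identical, against 36.9% to 61.6% for the other 26 pairs of members. Gzmd and Gzme were the closest pair. Of all windows of 90 bases in the last 500 bases of the Gzmd transcript, 1.70% occurred unchanged in Gzme, and no window was shared by any other pair, so most but not all 3' reads could be told apart between Gzmd and Gzme.

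The bases just upstream of the start sites are shown for the chromosome 14 genes because Gzmb was found in many more CD8 T-like cells than the genes beside it: over both libraries, 354 had Gzmb, 105 had Gzmc and 59 had any of Gzmd to Gzmg, and 49 of those 59 also had Gzmc. The sequences are from RefSeq on GRCm38.p6, minus strand, 5′ to 3′, and end before the first transcribed base in either annotation. Capitals mark TGACGTCA, the cAMP response element, where it is present with at most 1 change, and TGTGGT or its reverse complement ACCACA, the core of the sites that Runx factors bind. No matches overlapped.

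Gzmb (chr14:56262335-56262519): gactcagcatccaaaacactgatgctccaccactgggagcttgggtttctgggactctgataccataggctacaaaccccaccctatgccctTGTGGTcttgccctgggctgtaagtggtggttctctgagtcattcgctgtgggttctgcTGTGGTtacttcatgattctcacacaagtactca
Gzmc (chr14:56234658-56234842): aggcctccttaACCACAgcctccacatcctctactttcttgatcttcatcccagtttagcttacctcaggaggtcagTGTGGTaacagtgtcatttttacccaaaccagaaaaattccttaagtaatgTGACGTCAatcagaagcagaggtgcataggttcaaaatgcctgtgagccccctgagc
Gzmd (chr14:56132609-56132778): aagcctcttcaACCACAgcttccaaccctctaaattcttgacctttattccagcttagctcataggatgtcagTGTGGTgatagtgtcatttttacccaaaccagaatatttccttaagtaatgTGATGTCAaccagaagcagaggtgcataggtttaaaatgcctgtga
Gzme (chr14:56120626-56120810): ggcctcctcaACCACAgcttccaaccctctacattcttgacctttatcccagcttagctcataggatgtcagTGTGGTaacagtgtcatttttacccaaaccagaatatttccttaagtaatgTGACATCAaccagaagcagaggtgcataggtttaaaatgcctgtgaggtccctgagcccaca
Gzmf (chr14:56211418-56211592): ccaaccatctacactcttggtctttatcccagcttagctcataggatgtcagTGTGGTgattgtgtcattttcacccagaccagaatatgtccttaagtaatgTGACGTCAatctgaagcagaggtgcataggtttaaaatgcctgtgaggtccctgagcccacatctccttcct
Gzmg (chr14:56159580-56159764): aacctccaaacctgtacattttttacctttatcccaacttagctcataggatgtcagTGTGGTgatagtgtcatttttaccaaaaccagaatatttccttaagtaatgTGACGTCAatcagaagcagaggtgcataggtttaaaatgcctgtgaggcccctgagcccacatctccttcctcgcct

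The exact TGACGTCA stood upstream of Gzmc, Gzmf and Gzmg. Counted from 1 at its 5′ end, the site of Gzmd carried C4T and that of Gzme carried G5A. The best match upstream of Gzmb, like those of Gzmk and Prf1, had 2 changes, and that of Gzma had 3. Of 32851 RefSeq promoters, 1.55% held TGACGTCA in the 250 bases before the start site and 10.6% held it with at most 1 change. TGTGGT in either orientation was found upstream of 8 of the 9 members, the exception being Gzmk, and in 14.045% of all promoters. Over these 250 bases Gzmd and Gzme were 95.2% identical, the pairs among Gzmc to Gzmg 79.2% to 95.2%, and the other pairs 55.6% to 60.8%. A match is a description of the letters and not a bound site.

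Cells were put into classes by UMIs of marker genes that include none of the 9 members. CD8 T-like cells had Cd3d, Cd3e, Cd3g or Trac together with Cd8a or Cd8b1 and no Cd4, and there were 360 labelled WT and 381 labelled KO, with medians of 2862 and 2808 UMIs. NK-like cells numbered 72 and 161 (medians 2042 and 1756 UMIs) and CD4 T-like cells 69 and 116 (medians 2168 and 2206 UMIs). Of the gate's own genes, the NK receptor gene Ncr1 was in 51.4% and 47.8% of NK-like cells but in 0.556% and 0.525% of CD8 T-like cells, and Cd3e was in 1.39% and 1.24% of NK-like cells. Cells with markers of a second lineage, as doublets would have, were set aside, 521 labelled WT and 506 labelled KO. They held 17.8% and 26.5% of all member UMIs.

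The 9 genes were concentrated in CD8 T-like and NK-like cells. Together they made up 2672 CPM in CD8 T-like cells labelled WT (95% interval 2602 to 2743) and 3108 CPM in those labelled KO (3035 to 3182). In macrophage-like cells, which should lack them, they made up 5.32 and 4.90 CPM. A UMI of any member was found in 65.8% (labelled WT) and 65.4% (labelled KO) of CD8 T-like cells, and in 87.5% and 87.6% of NK-like cells. The shares in macrophage-like cells were 3.77% and 3.54%, although these cells were deeper (medians 8832 and 6637 UMIs), and they are taken here as the background. After thinning of every cell to 1000 UMIs, which left out 11 and 31 CD8 T-like cells and 1 and 8 NK-like cells, the shares were 50.4% and 51.4% in CD8 T-like cells, 77.5% and 77.8% in NK-like cells, and 0.754% and 0.661% in macrophage-like cells. Of all Gzmb UMIs in kept cells, 61.7% and 54.0% were in CD8 T-like cells, 5.61% and 5.60% in NK-like cells, and 23.5% and 27.0% in the cells set aside for markers of a second lineage.

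**Figure D1:**
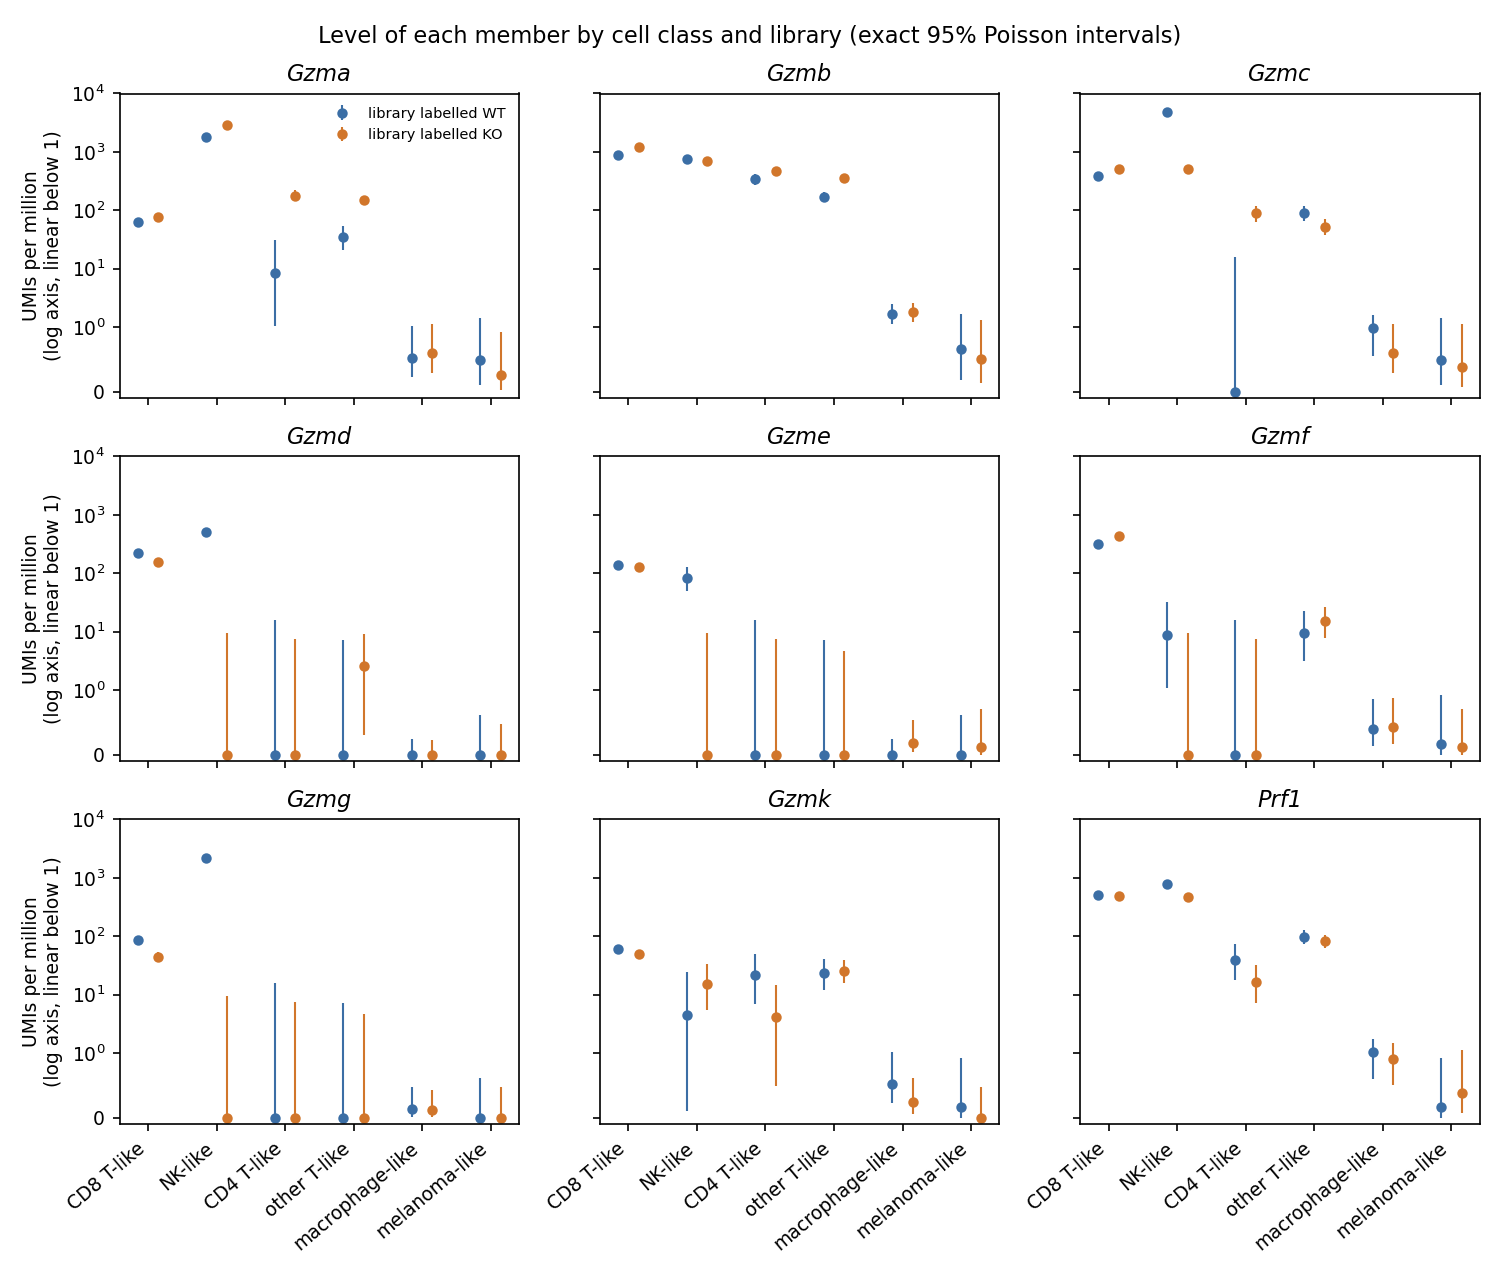
Level of each of the 9 genes in UMIs per 1000000 UMIs (log axis, linear below 1) by cell class, in both libraries by label, with exact 95% Poisson intervals. Every member was at 44.4 CPM or more in CD8 T-like cells and at or below 1.81 CPM in macrophage-like cells, and the high Gzmc, Gzmd and Gzmg points of NK-like cells labelled WT came from 1 cell.

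Gzmb was the member found in most CD8 T-like cells labelled KO and Prf1 in most of those labelled WT. Granzyme B had 1870 UMIs in 161 of 360 CD8 T-like cells labelled WT and 2671 UMIs in 193 of 381 labelled KO. Its level was 898 CPM (858 to 940) labelled WT and 1209 CPM (1163 to 1256) labelled KO. The log2 ratio of KO over WT was 0.43 (0.34 to 0.51), and it lay between 0.39 and 0.61 under each of the 9 alternatives tried for this value. The shares of positive cells, 44.7% (39.5 to 50.02) and 50.7% (45.5 to 55.8), had overlapping intervals, and so did the thinned shares of 29.8% and 34.0%. For comparison, 0.838% and 1.47% of macrophage-like cells had a Gzmb UMI.

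Gzmb fell in the order CD8 T-like, NK-like, CD4 T-like and other T-like cells in both libraries. NK-like cells stood at 746 and 698 CPM, CD4 T-like cells at 338 and 475 CPM, and T-like cells with neither or both of these markers at 170 and 354 CPM. In the library labelled KO no intervals of neighbours in this order overlapped. In the library labelled WT those of CD8 T-like and NK-like cells overlapped (638 to 867 CPM in NK-like cells), and the NK-like level was 410 CPM without 1 cell that held 91 of its 170 UMIs. The log2 ratio of Gzmb in NK-like cells was -0.10 (-0.38 to 0.19), and it was 0.66 without the highest cell of each library and 0.83 after thinning.

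Prf1 had 1061 UMIs in 174 CD8 T-like cells labelled WT and 1090 UMIs in 158 labelled KO. The levels of 510 CPM (479 to 541) and 493 CPM (464 to 523) overlapped, with a log2 ratio of -0.05 (-0.17 to 0.08). The share of positive cells was 48.3% (43.1 to 53.6) labelled WT and 41.5% (36.5 to 46.6) labelled KO, and 25.5% and 21.7% after thinning, again with overlapping intervals. Prf1 was at 785 and 464 CPM in NK-like cells, and the first value was 415 CPM without 1 cell that held 99 of the 179 UMIs. The shares of NK-like cells with Prf1 were 52.8% and 52.2%. In CD4 T-like cells it had only 9 and 8 UMIs.

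By fold in the summed level, Gzma was the member in which NK-like cells stood furthest above CD8 T-like cells. It was at 1820 CPM (1649 to 2004) in NK-like cells labelled WT and at 2858 CPM (2694 to 3029) in those labelled KO, against 62.4 and 77.4 CPM in CD8 T-like cells. The share of NK-like cells with a Gzma UMI was 75.0% (63.4 to 84.5) and 75.2% (67.7 to 81.6), and 67.6% and 65.4% after thinning, so the libraries differed in the summed level and not detectably in the share. The log2 ratio of the NK-like level was 0.65 (0.49 to 0.82), and it was positive under each of the 9 alternatives tried for it, between 0.40 and 1.11. A single NK-like cell labelled WT held 35349 of the 227977 UMIs of its class but 4 of the 415 Gzma UMIs, which lowers the level labelled WT. The ratio without that cell alone was not computed. Among CD8 T-like cells, 6.94% labelled WT and 10.5% labelled KO were Gzma-positive, with a median of 3 UMIs per positive cell in both, against 0.419% and 0.455% of macrophage-like cells. Monocyte-like cells had 7 Gzma UMIs labelled WT and 114 labelled KO (1.72 and 12.1 CPM). Of the 114, 98 were in 10 cells with 3 or more Gzma UMIs, and 6 of those 10 also had a UMI of an NK marker, whose part in this level was not tested.

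Gzmk was sparse and spread out. It had 124 UMIs in 74 CD8 T-like cells labelled WT and 108 UMIs in 75 labelled KO, no cell had more than 6, and the median positive cell had 1. Its level was 59.6 and 48.9 CPM (log2 ratio -0.29, interval -0.67 to 0.10), and the shares of positive cells were 20.6% and 19.7%. In NK-like cells Gzmk had 1 UMI labelled WT and 6 labelled KO.

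**Figure D2:**
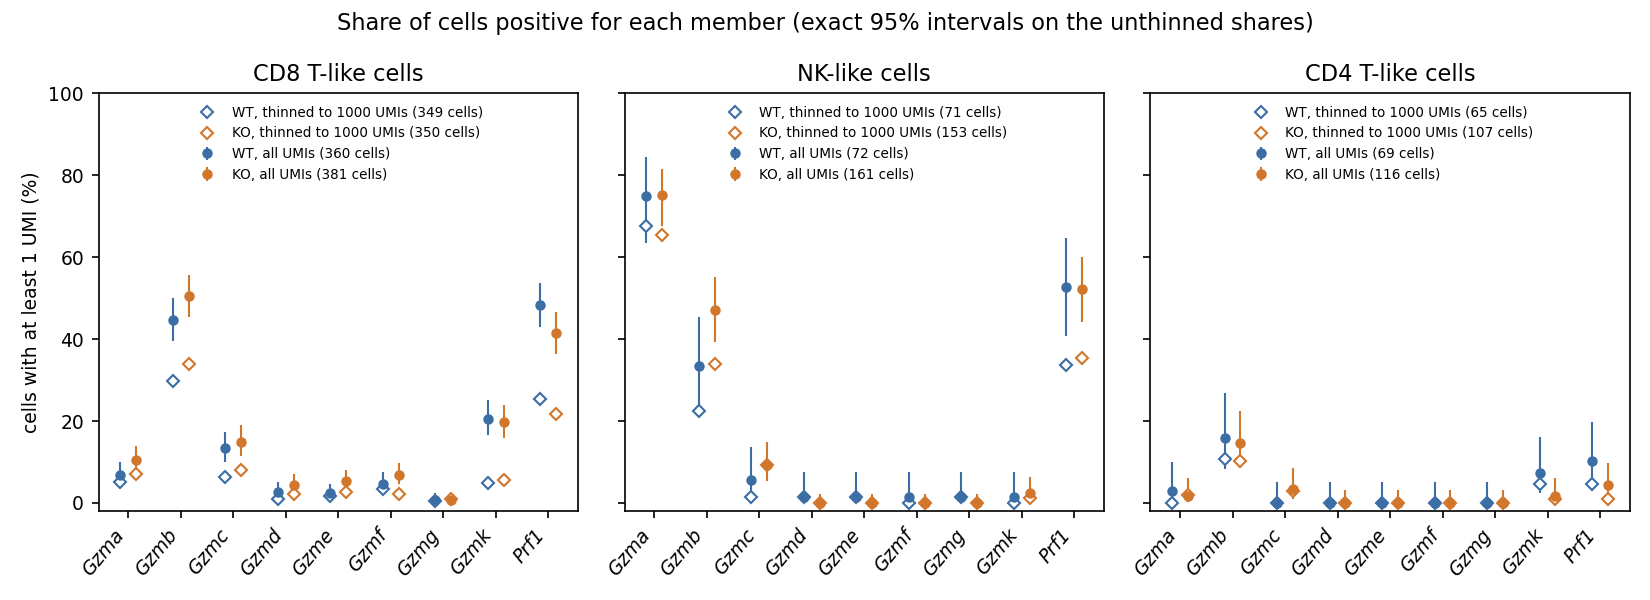
Share of CD8 T-like, NK-like and CD4 T-like cells with at least 1 UMI of each member, in all UMIs with exact 95% intervals (filled circles) and with each cell thinned to 1000 UMIs (open diamonds). Gzma was in 75.0% and 75.2% of NK-like cells, and Gzmb and Prf1 were in 41.5% to 50.7% of CD8 T-like cells.

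Gzmc was found in a smaller set of CD8 T-like cells, most of which also had Gzmb and Prf1. It had 801 UMIs in 48 CD8 T-like cells labelled WT (13.3%) and 1131 UMIs in 57 labelled KO (14.96%), or 385 and 512 CPM, a log2 ratio of 0.41 (0.28 to 0.54). This direction turned with the way cells were classed: with clusters in place of the marker gate the log2 ratio was -0.73, and the clusters took in 1 cell labelled WT with 1076 Gzmc UMIs that the gate called NK-like. Across both libraries, 100 of 105 Gzmc-positive CD8 T-like cells also had Gzmb (95.2%) and 96 had Prf1 (91.4%), against 39.9% and 37.1% of the 636 others. Read the other way, Gzmc was in 28.2% of Gzmb-positive cells and in 1.29% of Gzmb-negative ones. After thinning to 1000 UMIs, 43 of 50 Gzmc-positive cells had Gzmb (86.0%) against 27.7% of the others, and 30 of the 50 had Prf1 against 20.8%.

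Gzma and Gzmc were seldom found in the same CD8 T-like cell. Of 65 Gzma-positive cells 4 had Gzmc (6.15%), against 14.9% of the 676 others, and after thinning 0 of 43 had it, against 7.62% of the others. Gzmb was in 63.1% of Gzma-positive cells and in 46.3% of the others, or 34.9% and 31.7% after thinning. In NK-like cells Gzma was in 87 of 100 Gzmb-positive cells and in 66.2% of the others. These shares pool cells of both libraries and depend on depth, since a deep cell is more often positive for any gene.

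**Figure D3:**
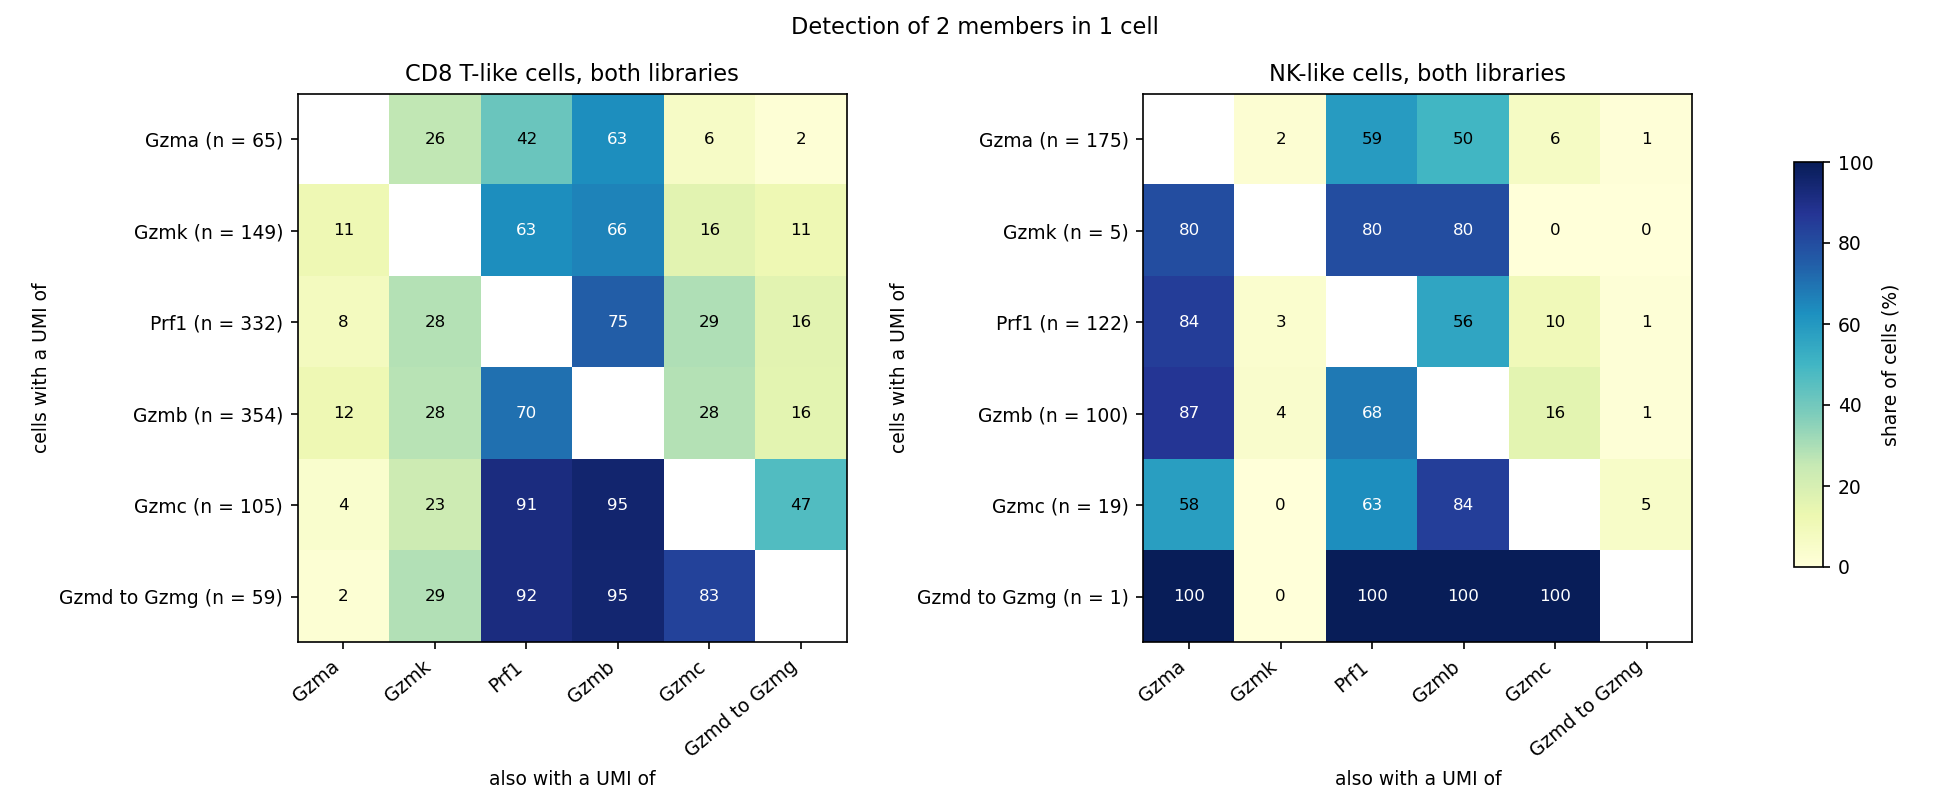
Share of cells with a UMI of the member named by the row that also had a UMI of the member named by the column, in CD8 T-like and NK-like cells of both libraries, with the number of cells per row. In CD8 T-like cells the row of Gzmc reads 95.2% for Gzmb and 3.81% for Gzma, and the Gzmd to Gzmg row of NK-like cells rests on 1 cell.

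Gzmd, Gzme, Gzmf and Gzmg were found in very few cells, many UMIs at a time. Together they had 1577 UMIs in 22 CD8 T-like cells labelled WT (6.11%, interval 3.87 to 9.11) and 1696 UMIs in 37 labelled KO (9.71%, 6.93 to 13.1). The summed levels were 757 and 768 CPM, a log2 ratio of 0.02 (-0.08 to 0.12). The highest cell alone held 740 of the 1577 UMIs labelled WT (46.9%) and 641 of the 1696 labelled KO (37.8%), and the highest 3 cells held 85.3% and 73.6%. By comparison, the highest 3 cells held 21.9% and 15.5% of Gzmb UMIs and 15.4% and 15.05% of Prf1 UMIs. Gzma and Gzmc lay between these, with 50.8% and 33.9% of Gzma UMIs and 51.2% and 30.5% of Gzmc UMIs in the highest 3 cells.

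The ratios of these 4 genes between the libraries rested on those cells. Gzmg had 178 UMIs labelled WT and 98 labelled KO in CD8 T-like cells, 85.5 and 44.4 CPM, which is a log2 ratio of -0.95 (-1.32 to -0.58). All of these UMIs were in 3 cells of each library, the same 3 that held the most Gzmd to Gzmg UMIs. Without the cell of each library with the most Gzmg, it was at 21.4 and 23.8 CPM, a log2 ratio of 0.15. Gzmd went from 219 to 156 CPM (log2 ratio -0.49, interval -0.70 to -0.28), with 249 of its 455 UMIs labelled WT in 1 cell. Gzmd was at 100.03 and 96.5 CPM without its highest cell of each library. Gzmf went from 313 to 440 CPM (log2 ratio 0.49, 0.35 to 0.64), and it was at 141 and 266 CPM without its highest cells. Gzme was at 141 and 127 CPM, with overlapping intervals, and at 68.7 and 90.1 CPM without its highest cells. The intervals treat UMIs as independent, which UMIs of 1 cell are not.

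**Figure D4:**
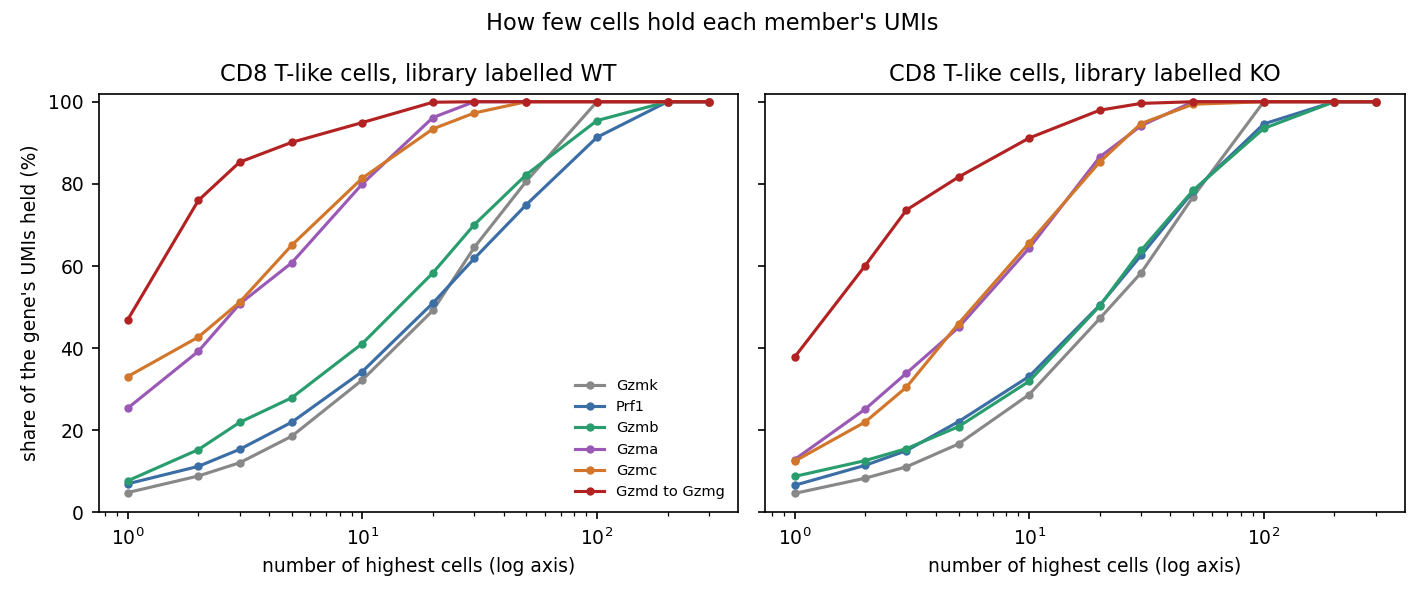
Share of each gene's UMIs in CD8 T-like cells held by the highest cells, against the number of those cells on a log axis, with cells labelled WT on the left and cells labelled KO on the right. The 3 highest cells held 85.3% and 73.6% of Gzmd to Gzmg UMIs but 12.1% and 11.1% of Gzmk UMIs.

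Cells with 10 or more Gzmd to Gzmg UMIs numbered 18 labelled WT and 20 labelled KO, and they held 97.4% and 94.9% of all such UMIs in the libraries. Of them, 15 and 17 were CD8 T-like, which is 4.17% (2.35 to 6.78) and 4.46% (2.62 to 7.05) of the class, 1 labelled WT was NK-like, and 2 and 3 had been set aside for markers of a second lineage. All 32 CD8 T-like ones had Gzmb and Prf1, 14 and 16 had Gzmc, and none had Gzma. These counts are not set against cells of equal depth, and a deep cell is more often positive for any gene. The exact mix differed from cell to cell. Gzmf without Gzmd or Gzme was seen in 7 of these cells labelled WT and 1 labelled KO, Gzmd or Gzme without Gzmf in 2 and 3, and Gzmf with Gzmd or Gzme in 6 and 13. The highest cell labelled WT had 249 Gzmd, 98 Gzme, 360 Gzmf and 33 Gzmg UMIs, and the highest labelled KO had 133, 84, 392 and 32.

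These cells were deep, with medians of 11759 UMIs labelled WT and 13603 labelled KO, against 2796 and 2674.5 for the other CD8 T-like cells. Havcr2, which encodes the inhibitory receptor TIM-3, was found in 12 of 15 and 15 of 17, against 25.5% and 21.4% of the others. Pdcd1, which encodes PD-1, was in 13 and 17 of them, against 39.4% and 36.0% of the others. Mki67 or Top2a, genes of dividing cells, were in 11 and 13, against 38.6% and 35.4%. Tcf7, a transcription factor of memory-like and stem-like T cells, was in 2 and 0, against 20.9% and 21.4%. Among CD8 T-like cells with 10000 UMIs or more, 9 of 64 labelled WT and 13 of 73 labelled KO were such cells. There the gaps of Pdcd1 and of Mki67 or Top2a were small, and that of Havcr2 was narrower than over all depths. The direction of Tcf7 turned in the cells labelled WT, on 2 cells. Havcr2 was in 9 of those 9 and 11 of those 13, against 65.5% and 70.0% of the other deep cells, and Pdcd1 was in all of them, against 51 of 55 and 54 of 60 other deep cells. Mki67 or Top2a were in 7 and 11, against 80.0% and 88.3%, and Tcf7 was in 2 and 0, against 7.27% and 6.67%.

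The same state genes separated the levels of most members among all CD8 T-like cells. Cells with Havcr2 and no Tcf7 numbered 97 and 89, cells with Tcf7 and no Havcr2 71 and 74, and cells with neither 189 and 214. Gzmb was at 1393 and 1835 CPM in cells with Havcr2 only, at 494 and 610 CPM in cells with neither, and at 40.8 and 63.7 CPM in cells with Tcf7 only. Its share of positive cells fell from 88.7% (80.6 to 94.2) and 95.5% (88.9 to 98.8) to 8.45% (3.16 to 17.5) and 9.46% (3.89 to 18.5). Depth differed between these states, with medians of 8300 and 11246 UMIs in cells with Havcr2 only and 2503 and 2006 UMIs in cells with Tcf7 only. After thinning to 1000 UMIs the Gzmb shares were still 58.8% and 58.4% against 4.41% and 4.48%.

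Prf1 followed Gzmb, with 760 and 764 CPM in cells with Havcr2 only and 44.9 and 88.2 CPM in cells with Tcf7 only. Gzmc was in 38.1% and 50.6% of cells with Havcr2 only and in 1.41% and 1.35% of cells with Tcf7 only, and the 4 genes Gzmd to Gzmg were in 14.4% and 32.6% against 1 of 71 and 0 of 74 cells. Gzma differed from these. Its level was highest in cells with neither state gene, at 180 and 152 CPM in 11.1% and 14.02% of cells, against 2.77 and 18.6 CPM in 3.09% and 6.74% of cells with Havcr2 only. In cells with Tcf7 only it was at 4.08 and 142 CPM, from 1 UMI in 1 cell labelled WT and 29 UMIs in 4 cells labelled KO. Gzmk was in 33.0% and 25.8% of cells with Havcr2 only, but after thinning its shares were 6.19% and 2.25% there and 6.08% and 7.89% in cells with neither, so the higher shares in all UMIs did not hold at equal depth.

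The summed Gzmb level of dividing CD8 T-like cells was higher in the library labelled KO. That of the other CD8 T-like cells was lower, but their share of positive cells was not. In cells with Mki67 or Top2a (144 and 142), Gzmb was at 921 and 1416 CPM with 63.9% (55.5 to 71.7) and 78.2% (70.5 to 84.7) positive. In cells without either gene (216 and 239), it was at 855 and 743 CPM with 31.9% and 34.3% positive. The difference between dividing and other cells was not tested. A cell counted as dividing on 1 UMI of either gene, which depends on depth, and the medians were 6858 and 8003 UMIs in dividing cells and 2250 and 1887 in the others. After thinning the Gzmb shares were 39.2% and 49.6% in dividing cells and 23.3% and 23.7% in the others.

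**Figure D5:**
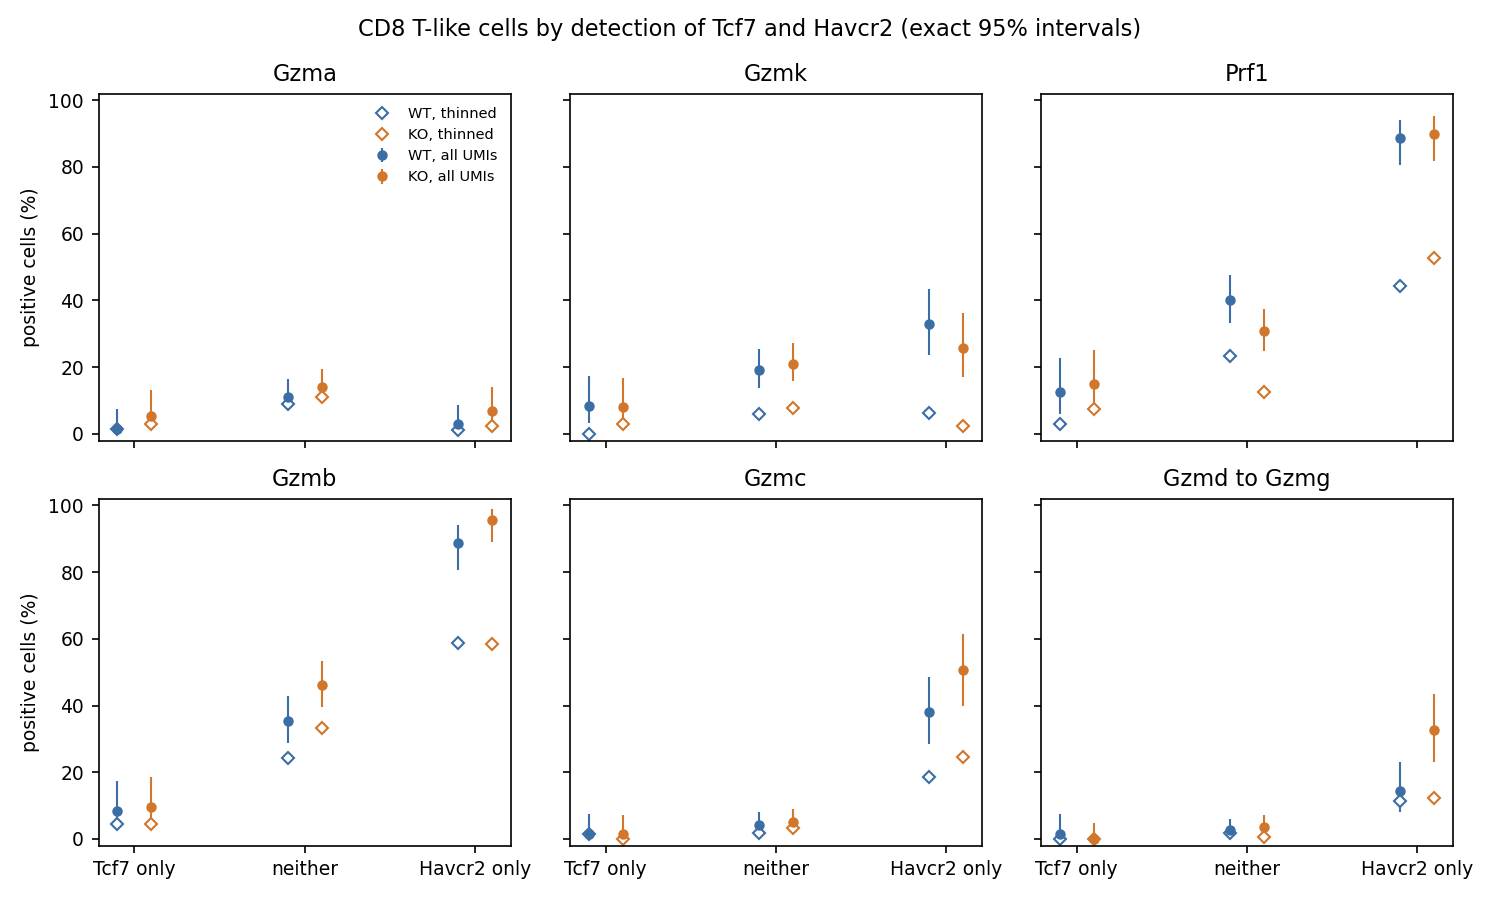
Share of CD8 T-like cells positive for each member, in cells with Tcf7 and no Havcr2, with neither, and with Havcr2 and no Tcf7, in all UMIs with exact 95% intervals (filled circles) and thinned to 1000 UMIs (open diamonds). In all UMIs Gzmb stood at 8.45% and 9.46% in cells with Tcf7 only and at 88.7% and 95.5% in cells with Havcr2 only, whereas Gzma was at most 14.02% in each of them.

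In CD8 T-like cells set by the marker gate no member differed by 2-fold between the libraries, and few other genes did. With clusters in place of the gate 2 members did, Gzma with a log2 ratio of 1.499 and Gzmg with -2.41. The clusters took in 1 cell labelled WT that the gate called NK-like. It held 490 Gzmg UMIs, where the gated CD8 T-like cells labelled WT had 178 in all. Of 2871 genes with at least 50 CPM in either library, 0.0697% were lower by 2-fold or more in the library labelled KO and 0.174% were higher, and 0 of the 9 members were past 2-fold in either direction. By direction alone 5 members were lower and 4 higher, with a median log2 ratio of -0.05, against 39.4% lower and a median of 0.05 over all genes tested. The lower ones were Gzmd, Gzme, Gzmg, Gzmk and Prf1. The count of lower members was 6 with clusters and 6 with a stricter gate. It was 3 when each cell was weighted equally, when cells were thinned, when the highest cell of each gene was left out, and, as tried after seeing the data, when cells with second-lineage markers were kept. The summed level of all members had a log2 ratio of 0.22 (0.17 to 0.27) by the marker gate and of -0.06 with clusters in place of the gate. The sum with clusters also includes the cell labelled WT with 490 Gzmg UMIs.

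In NK-like cells the sum of all members was lower in the library labelled KO, and the direction rested on 1 cell. The sum was 10843 CPM labelled WT and 4538.5 CPM labelled KO, a log2 ratio of -1.26 (-1.34 to -1.17). A single NK-like cell labelled WT held 1896 of the 2472 member UMIs. Without the highest cell of each library the levels were 2990 and 4496 CPM, and the log2 ratio turned to 0.59. That cell had 35349 UMIs in all, with 1076 of Gzmc, 490 of Gzmg, 115 of Gzmd, 99 of Prf1 and 91 of Gzmb. It had 0 UMIs of Cd3d, Cd3e and Cd3g, 2 of Trac, 8 of Eomes, 91 of Fcer1g, 0 of Ncr1 and 0 of Klrb1c, and 0.0481% mitochondrial UMIs. Of the genes that define NK-like cells it had Eomes and 1 UMI of Klre1 only, and clusters made without the 9 members placed it with CD8 T-like cells.

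Of the 7 members with at least 50 CPM in NK-like cells, 4 were lower by 2-fold or more (Gzmc, Gzmd, Gzme and Gzmg) and 0 were higher, where 4.49% of 3431 genes were lower and 4.43% higher. All but 5 of their UMIs labelled WT were in the single cell, and 3 of the genes had 0 UMIs labelled KO, which allows up to 7.56 CPM for each. Gzmc was at 4742 and 504 CPM. Outside the single cell it had 5 UMIs in 3 NK-like cells labelled WT, against 200 UMIs in 15 labelled KO. The shares of Gzmc-positive NK-like cells, 5.56% (1.53 to 13.6) and 9.32% (5.31 to 14.9), overlapped. The share of Gzmb-positive NK-like cells was 33.3% (22.7 to 45.4) labelled WT and 47.2% (39.3 to 55.2) labelled KO, and 22.5% and 34.0% after thinning, with overlapping intervals both times.

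Gzmb was the member with the most UMIs in CD4 T-like cells, and most of them lay in cells with Foxp3, the transcription factor of regulatory T cells. In the library labelled WT, 11 of 69 CD4 T-like cells (15.9%) held 79 Gzmb UMIs, and in the library labelled KO 17 of 116 (14.7%) held 231. Where Foxp3 was detected, 8 of 12 labelled WT (66.7%, 34.9 to 90.1) and 11 of 17 labelled KO (64.7%, 38.3 to 85.8) were Gzmb-positive, against 5.26% (1.10 to 14.6) and 6.06% (2.26 to 12.7) of CD4 T-like cells without it. These Foxp3-positive cells held 68 of the 79 and 201 of the 231 Gzmb UMIs. Their medians were 3307 and 7753 UMIs, against 1881 and 2136 in the rest. After thinning the shares were 41.7% and 47.1% against 3.77% and 3.33%. Prf1 was in 4 and 2 of the Foxp3-positive cells, and Gzma and Gzmd to Gzmg had 0 UMIs in them, where 12 and 17 cells allow up to 25.0% and 17.6% of cells with a UMI, which is no limit on cells expressing the genes.

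Of the 3 members with at least 50 CPM in CD4 T-like cells, 2 (Gzma and Gzmc) were higher by 2-fold or more in the library labelled KO and 0 were lower, where 4.31% of 3529 genes were higher and 3.68% lower. Both rested on few cells. Gzma had 2 and 87 UMIs, and 84 of the 87 were in 1 cell, without which it was at 6.32 CPM. Gzmc had 0 and 43 UMIs, the latter in 4 cells.

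The other genes of granule content, release and effector function were described by a list of 29 genes. In CD8 T-like cells 23 of them had at least 50 CPM, 15 were lower and 8 higher in the library labelled KO, where 39.4% of all genes tested were lower, and 0 were past 2-fold, with a median log2 ratio of -0.06 against 0.05 over all genes tested. Ccl5, a chemokine stored and released by killer cells, went from 3218 to 2185 CPM (log2 ratio -0.56, -0.61 to -0.51). Nkg7, a granule membrane protein needed for full degranulation, was at 1652 and 1482 CPM (-0.16, -0.23 to -0.09), and Srgn, the proteoglycan that packs granzymes, at 599 and 512 CPM (-0.23, -0.34 to -0.11). Serpinb9, the inhibitor that protects killer cells from their own granzyme B, went from 97.0 to 141 CPM (0.54, 0.28 to 0.80), and the transcription factor Zeb2 from 87.9 to 126 CPM (0.52, 0.25 to 0.80). Serpinb9b, a relative of that inhibitor below the level needed for the list's count, had 4 UMIs labelled WT and 51 labelled KO.

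Genes of granule release differed by less than 2-fold. Unc13d, which primes granules for fusion, was at 51.9 and 50.2 CPM, Stxbp2 at 61.5 and 59.7 CPM, and Rab27a, which tethers granules at the membrane, at 61.0 and 51.1 CPM, with the intervals of all 3 log2 ratios spanning 0. Stx11, a fusion protein below the level needed for the list's count, went from 72 to 44 UMIs (-0.80, -1.37 to -0.24). Vamp8, a vesicle fusion protein, went from 383 to 315 CPM (-0.29, -0.43 to -0.14). Ctsc, the protease that activates granzymes, was at 131 and 136 CPM. Ifng, the cytokine interferon gamma, was at 293 and 313 CPM, and Fasl, the ligand of the death receptor Fas, at 42.3 and 38.0 CPM. The regulators Tbx21, Eomes, Prdm1 and Runx3 had log2 ratios between -0.13 and 0.13, each with an interval spanning 0. Id2, another regulator of the list, went from 859 to 792 CPM (-0.12, -0.21 to -0.02). In NK-like cells 21 of the 29 had at least 50 CPM, with 10 higher and 11 lower, where 47.9% of all genes tested were lower. In CD4 T-like cells 20 did, with 12 higher and 8 lower, where 51.7% of all genes tested were lower. The genes past 2-fold were Tnf in NK-like cells, with 5 UMIs labelled WT and 20 labelled KO, and Cst7 in CD4 T-like cells, with 6 and 29, and the intervals of both log2 ratios spanned 0.

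Over 26 sums of class and library with at least 50 cells each, genes whose log2 level ran most like a member's were sought among 6255 genes. For Gzmb they were Sh2d2a (r = 0.99) and Nkg7 (0.99), for Prf1 Klrc1 (0.98), Fasl (0.98) and Xcl1 (0.96), and for Gzmc Xcl1 (0.95), Eomes (0.95) and Crtam (0.94). For Gzma they were Klra9 (0.94), Samd3 (0.93) and Klrb1c (0.92), and for Gzmk Tox (0.94), Ifng (0.93) and Trbc2 (0.92). Eomes and Klrb1c were among the genes used to gate NK-like cells. In NK-like cells labelled WT, 1 cell held 1076 of the 1081 Gzmc UMIs and 99 of the 179 Prf1 UMIs. That point of Gzmc therefore rests on 1 cell, and r without it was not computed. The points share libraries and classes, and the values describe where the genes were detected.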

How the data were processed

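Single-cell suspensions were sequenced with 10x Genomics 3' v3 chemistry, and the deposited matrices hold raw UMI counts per gene and barcode that the authors made with Cell Ranger 4.0.0 against mm10. Each genotype is 1 pooled library. The members and lists were chosen with earlier results of these data known, and gate thresholds were set after seeing the data.

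Cells with at least 200 genes and at most 10% mitochondrial UMIs were kept. T-like cells had at least 2 UMIs of Cd3d, Cd3e, Cd3g or Trac and at least 3 per 10000 UMIs, and NK-like cells at least 3 UMIs of Ncr1, Klrb1c, Klre1, Klra4, Klra8 or Eomes without that T signal. Cells with markers of 2 lineages were set aside in place of a doublet caller. UMIs were summed per class and library. Exact 95% intervals were Poisson for sums, Clopper-Pearson for shares and conditional binomial for ratios. The share and ratio intervals were run on counts simulated as independent, which checks the code. This says nothing of UMIs held by few cells, as here. A count of 0 was given a limit of 3 counts. Genes with at least 50 CPM in either library were compared on log2(CPM + 1) for the counts past 2-fold. Other log2 ratios used no pseudocount. The text names the 9 members, genes of the list of 29, and the 3 genes most like a member in log2(CPM + 10). The third such gene for Gzmb is not reported here. Genes used to describe states and single cells (Tcf7, Havcr2, Pdcd1, Mki67, Top2a, Foxp3, Fcer1g) come from the marker lists or were added after values were seen. Alternatives were another cell filter, a stricter gate, Leiden clusters, thinning, equal weight per cell, leaving out the highest cell, and median-of-ratios scaling. Python 3.11.15, numpy 2.4.6, pandas 2.3.3, scipy 1.17.1, scanpy 1.11.5, leidenalg 0.10.2, biopython 1.88 and matplotlib 3.10.9 were used.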

Additional observations from a re-analysis of the deposited data

Results flagged for a closer look

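Cells with markers of a second lineage, which were left out of the class values of the report, held 17.8% of all member UMIs in the library labelled WT and 26.5% in the library labelled KO, above the level in macrophage-like cells. Of these cells, 155 and 150 met the CD8 T-like markers and held 67.9% and 63.0% of that signal. The 9 members stood at 511 and 1003 CPM in them, but 1 cell labelled KO held 948 of their 2353 member UMIs in that library. Without that cell, as tried after seeing the data, the level labelled KO was 605 CPM. With the highest cell of each library left out, the levels were 452 and 605 CPM, a log2 ratio of 0.42 (0.31 to 0.54). Over all cells with second-lineage markers the log2 ratio of the summed level was 1.22 (1.14 to 1.30) with that cell and 0.80 (0.71 to 0.88) without it. It was 0.92 (0.84 to 1.01) without the highest cell of each library. Without the cell labelled KO, the remaining second-lineage cells held 19.7% of all member UMIs in that library. The same cell held 479 of the 537 Gzmd to Gzmg UMIs in second-lineage cells labelled KO, and it had 13 Cd8a UMIs, none of C1qa and 1 of Lyz2. Among the second-lineage cells with CD8 T-like markers, 147 and 135 had 3 or more UMIs of macrophage markers, their medians were 13675 and 12656 UMIs, and 66.5% and 70.7% had a member UMI. What these cells were was not tested.

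In the library labelled KO, 1 mast or basophil-like cell had 12 Gzmb UMIs and another had 6, where macrophage-like cells with Gzmb mostly had 1. The first had 32 UMIs of Cpa3 and 21 of Cma1, mast cell proteases, and the second had 6 and 11. Both had 0 UMIs of Prf1 and Gzma. The class held 5 cells in each library, and the highest Gzmb value labelled WT was 1 UMI.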

How the results depend on the processing

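No paired analysis was possible because each genotype is 1 library. Of 68 recomputed values of the main comparisons 49 stayed within the stated range of the reported value and 14 moved beyond it, and of 156 for single members 109 and 36 did. The remaining 5 and 11 were values whose reported interval excluded 0 and whose sign turned. Signs also turned among values whose interval spans 0: Gzmb in NK-like cells and Gzme in CD8 T-like cells kept the reported sign in 5 of 9 alternatives each, with values up to 0.83 and 0.996. In CD8 T-like cells the log2 ratio of the summed level (0.22) was -0.061 with clusters, 0.27 thinned, 0.29 with equal weight per cell, 0.27 without the highest cell and 0.45 with second-lineage cells kept, a setting chosen after seeing the data. In NK-like cells (-1.26) it was 0.35 with clusters, 0.43 thinned, 0.40 with equal weight, 0.59 without the highest cell, -1.56 with the stricter gate and -0.26 with second-lineage cells kept. The number of lower members in CD8 T-like cells (5) was 3 thinned, with equal weight, without the highest cell and with second-lineage cells kept, and 6 with clusters and with the stricter gate. In NK-like cells (3 of those found in both libraries) it was 1 thinned, 1 with equal weight and 0 without the highest cell, and in CD4 T-like cells (2) it was 1 with the stricter gate. With clusters, Gzmb in CD4 T-like cells turned to -0.49, Gzmc in CD8 T-like cells to -0.73 and Prf1 in NK-like cells to 0.067. With clusters Gzma and Gzmg in CD8 T-like cells (0.31 and -0.95) moved to 1.499 and -2.41. Thinned, Gzmd in CD8 T-like cells turned to 0.24 and Prf1 in NK-like cells to 0.030. Without the highest cell, Gzmc and Prf1 in NK-like cells turned to 3.78 and 0.11 and Gzmg in CD8 T-like cells to 0.15. With equal weight Prf1 in NK-like cells was 0.14, and with second-lineage cells kept it was 0.17 and Gzmd in CD8 T-like cells 0.068. With those cells kept, Gzmd in CD8 T-like cells was -0.39 and the summed level in CD8 T-like cells 0.30 without the 1 second-lineage cell labelled KO that had the most member UMIs. Turns without the highest cell come from that 1 cell, and the turn of Gzmd with second-lineage cells kept was not seen without the 1 cell labelled KO. The clusters placed 1 cell labelled WT, NK-like by the gate, with CD8 T-like cells. It had 1076 Gzmc, 490 Gzmg and 99 Prf1 UMIs, and its part in the values with clusters was not tested. The cause of the other turns was not tested either. Median-of-ratios scaling shifted log2 ratios by -0.04, 0.05 and 0.09 in CD8 T-like, NK-like and CD4 T-like cells. Few cells hold many of the UMIs in NK-like and CD4 T-like cells: without the highest cell, Gzma in CD4 T-like cells went from 4.38 to 0.52.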
